A study of Bos taurus with 30 samples.

Results

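Chromatin accessibility was compared between bovine 8-cell embryos and morula, using the ATAC-seq peak lists of all control libraries that the labels assign to these stages. This gave 6 of the 30 samples, 3 of 8-cell embryos and 3 of morula. The study followed accessible chromatin in cattle from germinal vesicle (GV) oocytes through embryos produced in vitro to the inner cell mass (ICM) of blastocysts and to embryonic stem cells (ESC), in 10 groups of 3 libraries. The other 24 libraries took no part in the tests and served to describe regions, bins and chromosomes of the 2 stages elsewhere. Among them are transcription blocked embryos (TBE), 2-, 4- and 8-cell embryos that were cultured with 50 µg/ml of α-amanitin to stop transcription. The 8-cell embryos were collected 3 days post insemination (dpi) and the morulae 5 dpi, and neither group received α-amanitin. Both came from oocytes that were matured and fertilized in vitro, and each library was made from a pool of at least 500 cells freed of the zona pellucida. The 3 libraries of a stage stem from separate oocyte collections, so that p-values measure the spread between collections. Only morulae were vortexed again in lysis buffer, and serum was added to the embryo culture on day 3, so that these differences in handling cannot be told apart from the stage.

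ATAC-seq uses a transposase that inserts sequencing adapters where DNA is accessible, and a peak is a stretch with more insertions than its surroundings. In cattle, the embryo takes over transcription from its own genome mainly around the 8-cell stage. At the morula stage the cells compact against each other, and outer and inner cells begin to follow the separate paths that lead to the trophectoderm and the ICM of the blastocyst. Because pools were measured, a region open in fewer cells and a region less open in every cell cannot be told apart.

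Morula had more regions of its own than 8-cell embryos. Peaks of the 6 lists were merged into 316754 regions, and 29252 of these (9.23%) had a peak in 3 of 3 morula and 0 of 3 8-cell libraries. The reverse held for 11199 regions (3.54%), so that morula-only regions were 2.61 times as many as 8-cell-only regions. With every list shortened to the same number of top peaks this ratio was 1.36. A further 54597 regions were called in all 6 libraries and are termed shared. At these, fold enrichment, the ratio of the pileup in a peak to the background around it, was centred on each library's median. It then rose in morula at 3558 regions (6.52% of those tested) and fell at 3877 (7.1%; limma, adjusted p under 0.05). Without centring, 9235 regions were higher and 1399 lower. Regions that were gained or that rose were often found again in the ICM, and those that were lost or that fell much less often.

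The depth of the libraries has to be read from the lists themselves. A background level, the pileup expected at a position by chance, grows in proportion to sequencing depth and was recovered from the peaks. It was 1.315, 0.806 and 0.808 in 8-cell replicates 1, 2 and 3, and 0.452, 0.927 and 0.716 in morula replicates 1, 2 and 3. The deepest library was 8-cell replicate 1 and the shallowest morula replicate 1, and the groups overlapped (exact permutation test, two-sided, p = 0.4). An exact permutation test of 3 against 3 libraries cannot go below p = 0.1. The lists held 125253, 128958 and 156569 peaks at the 8-cell stage and 142231, 207459 and 171670 in morula. The 2 longest lists were of morula, but morula replicate 1 was shorter than 8-cell replicate 3, and the means differed 1.27-fold (exact permutation test, two-sided, p = 0.2).

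**Figure D1:**
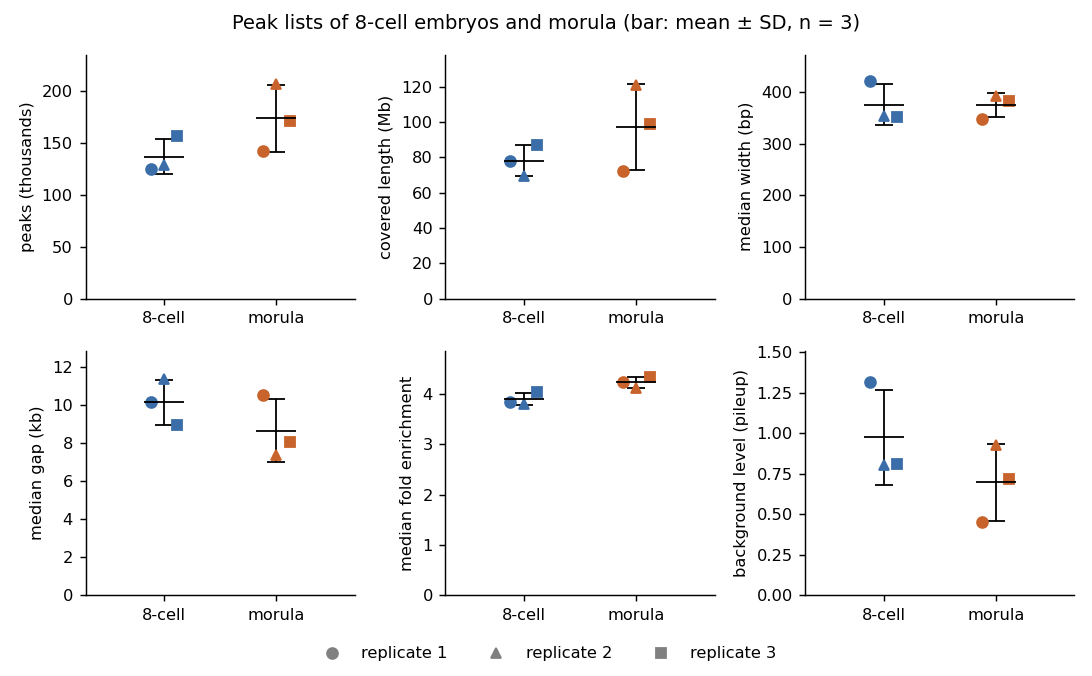
Each panel shows 1 value per library for the 8-cell stage (blue) and morula (orange), with mean ± SD of n = 3: peaks (in units of 1000), covered length in Mb, median width in bp, median gap in kb, median fold enrichment, and background level as pileup. Median fold enrichment lies between 3.81 and 4.05 in 8-cell libraries and between 4.12 and 4.34 in morula libraries, and the groups overlap in the other 5 panels.

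Peaks covered 77.7, 69.7 and 87.1 Mb of the genome in the 8-cell libraries and 72.3, 121 and 98.7 Mb in the morula libraries. Morula replicate 1 lay among the 8-cell libraries, so that the stages overlapped (exact permutation test, two-sided, p = 0.3). The median gap to the next peak was 10158, 11360 and 8977.5 bp at the 8-cell stage and 10519, 7377 and 8071 bp in morula. Gaps overlapped between the stages as well (exact permutation test, p = 0.3). The median width of a peak was 421, 353 and 352 bp at the 8-cell stage and 348, 392 and 383 bp in morula, and the widest and the narrowest median belonged to the replicates numbered 1 of either stage (exact permutation test, p = 1). Peaks of at least 1000 bp made up 18.0%, 13.2% and 14.9% of the 8-cell lists and 11.5%, 16.1% and 15.7% of the morula lists. Peaks of 200 bp, the narrowest in the lists, were 7.45%, 12.2% and 10.3% at the 8-cell stage and 12.5%, 8.61% and 8.48% in morula. In both classes of width the stages overlapped.

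Peaks of morula were stronger than those of 8-cell embryos. Median fold enrichment of all peaks was 3.84, 3.81 and 4.05 in 8-cell libraries and 4.25, 4.12 and 4.34 in morula libraries. Every morula library lay above every 8-cell library, at 4.23 ± 0.108 against 3.90 ± 0.128 (mean ± SD, 3 libraries per stage; two-sided exact permutation test, p = 0.1). Fold enrichment as deposited has a pseudocount added to pileup and background, so that it also depends on the background level. This level averaged 0.976 in 8-cell and 0.698 in morula libraries. Strong peaks were also more frequent in morula. Peaks whose fold enrichment reached 5 or more were 18.0%, 18.7% and 26.1% of the 8-cell lists and 32.4%, 30.7% and 33.1% of the morula lists. Those that reached 10 or more numbered 102, 176 and 793 in 8-cell libraries and 1136, 2334 and 1168 in morula libraries. The ratio of means was 4.33, but 11.1 without 8-cell replicate 3, which had most of the strong peaks of its stage. Without any other library the ratio was between 3.19 and 4.90. Neither share nor number overlapped between the stages (exact permutation tests, p = 0.1 for each). The highest fold enrichment of a list was 18.7, 18.1 and 19.6 at the 8-cell stage and 17.9, 18.9 and 20.3 in morula, with overlap (exact permutation test, p = 0.8). The median −log10 q of a peak, which depends on depth as well as on enrichment, was 3.72, 2.90 and 3.60 at the 8-cell stage and 3.60, 4.08 and 4.31 in morula, with overlap (exact permutation test, p = 0.2). On scaffolds not placed on a chromosome lay 0.778%, 0.723% and 0.576% of the 8-cell peaks and 0.444%, 0.478% and 0.470% of the morula peaks, lower in every morula library (exact permutation test, p = 0.1). The number of these peaks, 975, 932 and 902 against 631, 992 and 806, overlapped between the stages (exact permutation test, p = 0.4).

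Peaks recurred more within than between the stages. The Jaccard index, the bases covered by both of 2 lists as a share of those covered by either, was 0.399, 0.442 and 0.407 for the 3 pairs of 8-cell libraries and 0.419, 0.468 and 0.512 for the 3 pairs of morula libraries. Between the stages the 9 pairs ranged from 0.230 to 0.305, so that every pair within a stage was more alike than any pair across. The mean index was 0.441 within and 0.276 between stages, and this division of the libraries gave the largest difference of the 10 possible (exact permutation test, one-sided, p = 0.1, the smallest it allows). Of all merged regions, 108098 (34.1%) had a peak in 1 library and 127294 (40.2%) in at least 1 library of each stage. All 3 8-cell libraries had a peak at 80483 regions, and all 3 morula libraries at 111225. The shared regions were thus 67.8% of the 8-cell and 49.1% of the morula regions, while 13.9% of the former were 8-cell-only and 26.3% of the latter morula-only.

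**Figure D2:**
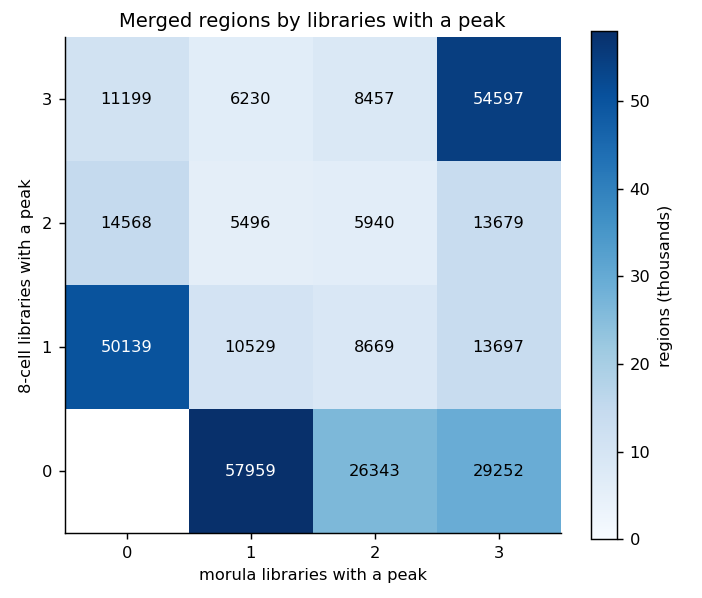
Merged regions counted by the number of morula libraries (horizontal axis, 0 to 3) and of 8-cell libraries (vertical axis, 0 to 3) with a peak in them, with darker blue for more regions. The corners hold 54597 shared, 29252 morula-only and 11199 8-cell-only regions, while 57959 regions have a peak in 1 morula library alone and 50139 in 1 8-cell library alone.

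How many regions a further library of the same stage would lack was measured by holding out each library in turn. Regions called in the other 2 8-cell libraries lacked a peak in 16.7%, 18.6% and 6.05% of cases in the held-out 8-cell replicates 1, 2 and 3. In single morula libraries, the same regions were lacking in 22.1% to 32.2%, above each held-out 8-cell library. Regions of 2 morula libraries lacked a peak in 23.1%, 4.58% and 8.70% of cases in the held-out morula replicates 1, 2 and 3, and in 34.1% to 49.8% in single 8-cell libraries. Loss of 8-cell regions and gain of morula regions were therefore both above the share that libraries of the same stage lacked.

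The number of regions of a single stage moved with the libraries that defined them. With a library left out, its stage needs a peak in 2 of 2 libraries only, and morula-only regions were 47553 without morula replicate 1, while 8-cell-only regions were 18386 without 8-cell replicate 1 and 16874 without 8-cell replicate 2. Peaks in 2 or 3 of 3 libraries of a stage and in 0 of the other gave 55595 morula-only and 25767 8-cell-only regions. With 8-cell and morula replicates 2 and 3 alone, the 4 libraries closest in background level, a choice made after seeing the data, these numbers were 52686 and 20528. Morula-only regions were the more numerous in each of these settings, and also where every list was shortened to the same 125253 top peaks, at 20318 against 14983, where their ratio was at its lowest. Among peaks with a −log10 q of at least 3 there were 22540 morula-only and 7050 8-cell-only regions.

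Positions are given on ARS-UCD1.2, the build of the lists. No gene annotation or sequence of this build was used here, so that regions are named by position and not by gene. The morula-only region with the highest mean fold enrichment on a placed chromosome was chr16:62969163-62969593, with 13.5, 14.0 and 11.8 in the 3 morula libraries. It was 431 bp long and had a peak in 3 of 3 ICM libraries, but in 0 libraries of GV oocytes, 4-cell embryos, 8-cell TBE and ESC. Next came chr1:106616358-106616781, with 11.2, 14.0 and 11.2 in morula, a peak in 3 of 3 ICM libraries and in 1 of 3 ESC libraries. The third, chr29:10578712-10579071, had 11.8, 13.6 and 10.5 in morula and was again called in 3 of 3 ICM libraries and in 0 of the libraries of the stages before. At each of the 3 regions morula replicate 2 had the highest value and peaks were narrow, from 337 to 410 bp in the single libraries.

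Among 8-cell-only regions on placed chromosomes, mean fold enrichment was highest at chr23:36492462-36492883, with 9.14, 9.41 and 11.5 in the 3 8-cell libraries. This region was also called in 1 of 3 4-cell and 2 of 3 8-cell TBE libraries, and in 0 of 3 ICM libraries. At chr16:54457570-54458044 the values were 7.07, 9.48 and 9.76, and peaks were present in 2 of 3 4-cell and 3 of 3 8-cell TBE libraries. The third region, chr1:125030964-125031326, had 8.24, 9.03 and 8.72 and no peak in any of the 24 libraries of the other groups. The first 2 of these regions were thus also called in 4-cell embryos and in 8-cell TBE, and all 3 were without a peak in ICM and ESC.

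Regions of a single stage were weaker than shared regions. Median fold enrichment of morula-only regions was 4.11, 4.63 and 4.40 in the 3 morula libraries, where shared regions had 5.14, 5.37 and 5.25. For 8-cell-only regions it was 3.88, 3.91 and 4.17 in the 8-cell libraries, against 4.36, 4.43 and 5.02 at shared regions. In each of the 6 libraries, shared regions were the stronger ones. Since shared regions had to be called in all 6 libraries and the others in 3, this follows in part from the definition. Morula-only regions lay farther from shared regions, at a median of 17586 bp to the nearest, than 8-cell-only regions, at 13084 bp, and 33.2% of the former and 41.4% of the latter lay within 10000 bp of one. On chromosome X lay 3.93% of morula-only, 2.67% of 8-cell-only and 3.25% of all merged regions. Unplaced scaffolds held 0.297% of morula-only and 1.11% of 8-cell-only regions. Neighbouring regions are not independent of each other, and these shares carry no test.

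Strong regions were more often called in the other stage as well. When the 80483 regions of 8-cell embryos were divided into 4 equal classes by mean fold enrichment, 21.0%, 17.5%, 12.3% and 4.95% of them, from the weakest to the strongest class, had no peak in any morula library. In the 4 classes of the 111225 regions of morula, 37.3%, 30.4%, 23.3% and 14.1% had no peak in any 8-cell library. Absence from the other stage fell with strength in both, and in each class it was more frequent among regions of morula than among those of 8-cell embryos. Weak regions lie nearer the threshold for calling a peak in any library. How often a library of the same stage lacked regions of each class was not measured. The lists also differ in length, and its part in these shares was not tested. A peak in all 3 libraries of the other stage was found for 84.6% of the strongest class of 8-cell regions and for 68.7% of that of morula regions.

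Morula-only regions were often found again in ICM. In ICM replicates 1, 2 and 3, a peak overlapped 44.9%, 42.0% and 49.1% of the morula-only regions, a mean of 45.4% ± 3.55 (SD, n = 3). The same libraries had a peak at 1.28%, 2.68% and 3.33% of the 8-cell-only regions, a mean of 2.43% ± 1.05 (SD, n = 3). Of all merged regions, 23.9%, 23.7% and 28.8% had a peak there, a level between those of the 2 classes. All merged regions include the 34.1% with a peak in 1 library of 6. Of the shared regions, 60.3%, 58.5% and 64.1% had a peak in ICM, above the morula-only regions. The lowest value of morula-only regions was far above the highest of 8-cell-only regions in the same libraries. In ESC the shares were 7.77%, 26.3% and 18.7% for morula-only and 1.04%, 6.34% and 4.07% for 8-cell-only regions, beside 9.0%, 24.6% and 18.6% of all merged regions. Morula-only regions were thus near the level of all regions in ESC, and 8-cell-only regions below it. Shared regions lay above it, at 28.5%, 50.1% and 43.8%. Morula-only and 8-cell-only regions were both lowest in ESC replicate 1, whose list was the shortest of the 3 with 39333 peaks. Of the morula-only regions 8650 (29.6%) were called in all 3 ICM libraries, against 66 (0.589%) of the 8-cell-only regions and 16.1% of all merged regions. Among peaks with a −log10 q of at least 3 the mean shares in ICM were 57.9% of morula-only and 3.86% of 8-cell-only regions, and with equal numbers of top peaks 53.2% and 4.29%. They were 49.9% and 11.6% where a library had to cover at least 50% of a region to count as having it. These settings for presence were added after the data had been examined.

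Before the 8-cell stage, regions of both classes were called less often than merged regions at large. GV oocytes had a peak at 4.55%, 4.84% and 4.67% of morula-only and at 1.63%, 1.87% and 2.25% of 8-cell-only regions, and at 9.48%, 9.45% and 9.79% of all merged regions. In 4-cell embryos the shares were 3.73%, 1.55% and 0.903% of morula-only and 2.86%, 1.78% and 1.08% of 8-cell-only regions, against 9.97%, 5.37% and 3.30% of all merged regions. The lists of 4-cell embryos were short, with 42012, 22983 and 14355 peaks, and what their length limits was not tested. The 8-cell TBE libraries called 7.95%, 20.0% and 4.78% of the 8-cell-only regions and 9.43%, 28.7% and 3.92% of the morula-only regions, both below the 18.3%, 36.0% and 11.2% of all merged regions. Neither class was called more often in all 3 of these libraries, and both shares were highest in replicate 2, which had the highest background level of the 30 libraries, 3.823. In none of the 24 other libraries was a peak found for 7929 (70.8%) of the 8-cell-only and 6520 (22.3%) of the morula-only regions, while this was so for 122874 (38.8%) of all merged regions.

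**Figure D3:**
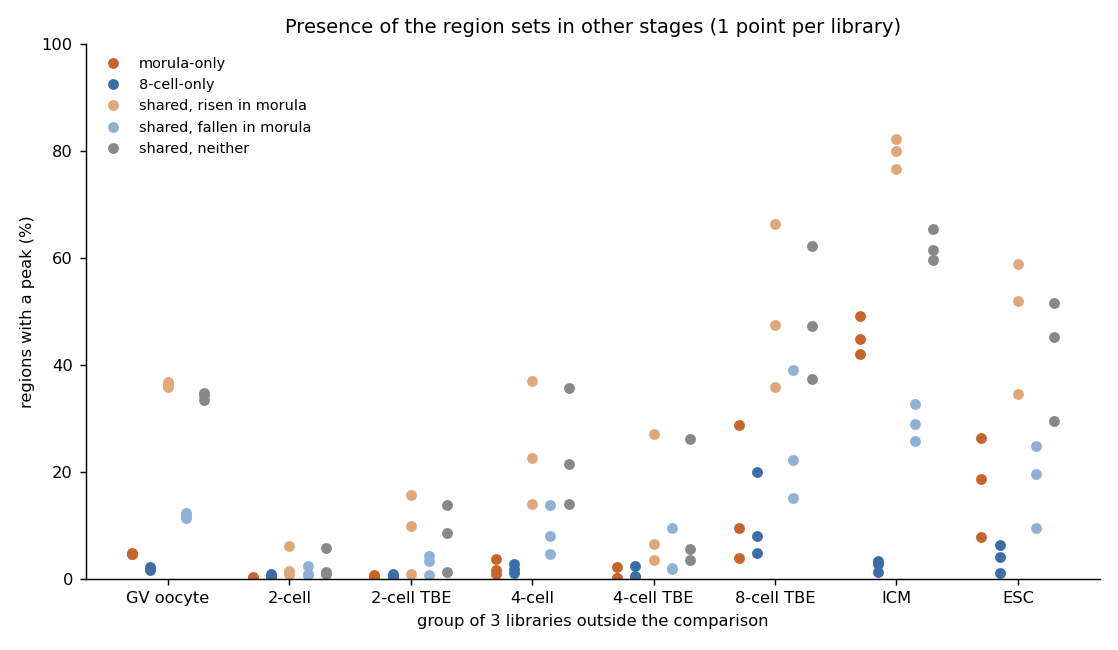
Percentage of regions of each set that a peak overlaps, 1 point for each library of the 8 groups outside the comparison (horizontal axis); colours mark morula-only, 8-cell-only and the shared regions that rose, fell or did neither in morula. In ICM, risen regions lie between 76.7% and 82.3%, morula-only regions between 42.0% and 49.1%, fallen regions between 25.8% and 32.7%, and 8-cell-only regions between 1.28% and 3.33%.

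At shared regions the same places were compared in all 6 libraries, although the length of the lists bears on which regions are shared. Median fold enrichment there was 4.36, 4.43 and 5.02 in 8-cell libraries and 5.14, 5.37 and 5.25 in morula libraries. All morula libraries lay above all 8-cell libraries, with 8-cell replicate 3 closest to morula and a ratio of means of 1.14 (exact permutation test, two-sided, p = 0.1). With equal numbers of top peaks, 44845 regions were shared and this ratio was 1.18. It was 1.39 with the pseudocount in fold enrichment removed, a setting added after the data had been seen. On the log2 scale the common shift of the values as deposited was 0.19. Each library was centred on its median before single regions were tested, so that changes of regions are relative to this shift. Without centring, 9235 regions were higher and 1399 lower in morula (limma, adjusted p under 0.05), in place of 3558 and 3877. How the calls divide into rises and falls therefore depends on the centring.

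**Figure D4:**
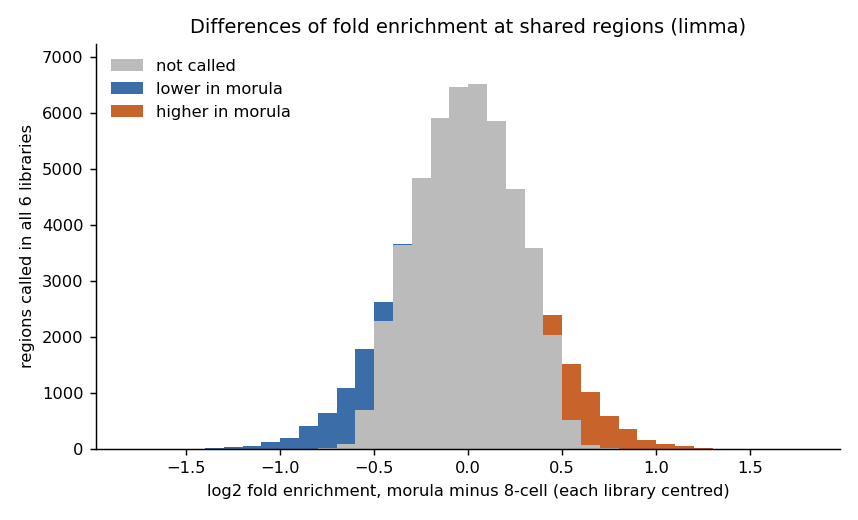
Number of shared regions (vertical axis) by their difference in log2 fold enrichment, morula minus 8-cell, after centring of each library (horizontal axis, steps of 0.1). The 3558 regions called higher (orange) and the 3877 called lower (blue) lie on either side of the grey regions that were not called, and called differences have medians of 0.64 and −0.64.

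Changes at shared regions went in both directions and were mostly below 2-fold. The median difference of the risen regions was 0.64 and that of the fallen regions −0.64 on the log2 scale, and 178 rises and 208 falls were at least 2-fold. Before centring, the risen regions had a median fold enrichment of 3.83, 3.73 and 4.22 in 8-cell libraries and 7.09, 7.67 and 7.18 in morula libraries. The fallen regions had 5.34, 5.57 and 6.26 in 8-cell libraries and 3.99, 3.90 and 4.08 in morula libraries. Risen regions were thus below the median of shared regions in 8-cell embryos and above it in morula, and fallen regions the other way around. Since regions were called by their centred difference between the same libraries, this follows in part from the choice. The number of calls was sensitive to single libraries. It was 2327 higher and 2452 lower without 8-cell replicate 1, 2027 and 2132 without 8-cell replicate 2, 1769 and 2022 without 8-cell replicate 3, and 1835 and 2103 without morula replicate 2.

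Of the 7394 called regions on placed chromosomes, 7304 had stages that did not overlap, and the regions named here were chosen among these. The largest rise was at chr7:82712270-82713449, where fold enrichment was 3.13, 2.87 and 2.88 in 8-cell libraries and 9.11, 10.9 and 8.54 in morula libraries (log2 difference 1.48 ± 0.16 SE, adjusted p = 0.00108, limma). The 8-cell values differed little among themselves. At chr15:46118997-46120361 the values were 3.54, 3.47 and 3.16 at the 8-cell stage and 12.0, 11.1 and 8.99 in morula, a log2 difference of 1.46. The region chr23:6053507-6054489 rose from 2.79, 2.89 and 2.92 to 9.29, 8.62 and 8.98, or by 1.45 on the log2 scale. Covered bases need not follow fold enrichment, which is a mean over each peak and so is not independent of width. At chr7:82712270-82713449 the peaks covered 941, 1030 and 200 bp in 8-cell libraries and 470, 560 and 541 bp in morula libraries. Among the 5 largest rises were further chr15:10176580-10177278, with 3.82, 3.47 and 3.87 at the 8-cell stage and 11.4, 11.8 and 10.9 in morula, and chr2:62991533-62991980, with 4.20, 3.60 and 3.70 at the 8-cell stage and 10.6, 12.8 and 11.7 in morula. The log2 differences of this pair were 1.42 and 1.41. Of the 5 regions, 4 had a peak in 3 of 3 ICM libraries and chr2:62991533-62991980 in 2 of 3, whereas GV oocytes had a peak in 1 of 3 libraries at chr15:46118997-46120361 and in 0 at the other 4. In 8-cell TBE, 2 of 3 libraries had a peak at chr7:82712270-82713449 and at chr15:46118997-46120361, 1 of 3 at chr15:10176580-10177278 and at chr2:62991533-62991980, and 0 at chr23:6053507-6054489.

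By the same choice, the largest fall was at chr12:64443373-64444640, while 2 larger falls were on unplaced scaffolds or at regions where the stages overlapped. This region had a fold enrichment of 8.50, 7.72 and 9.47 in 8-cell libraries and 3.23, 3.03 and 3.18 in morula libraries (log2 difference −1.63 ± 0.14 SE, adjusted p = 0.000701, limma). The morula values were close to each other. On the same chromosome, chr12:61451225-61451988 had 7.28, 7.80 and 7.83 at the 8-cell stage and 3.63, 2.89 and 2.91 in morula, a log2 difference of −1.48. At chr9:2563535-2564069 the values were 8.65, 8.85 and 9.54 against 3.20, 3.89 and 4.23, a log2 difference of −1.46. That the stages are apart at these regions follows from how they were chosen. Next were chr19:3160165-3160669, with 8.58, 7.99 and 9.42 against 3.79, 3.58 and 3.49, and chr11:49898546-49898943, with 7.98, 9.21 and 10.1 against 3.68, 3.38 and 4.61, with log2 differences of −1.45 and −1.43. None of the 5 had a peak in any library of GV oocytes, 4-cell embryos, ICM or ESC. In 8-cell TBE a peak was found in 2 of 3 libraries at chr12:64443373-64444640 and at chr19:3160165-3160669.

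Shared regions that rose and those that fell in morula also differed in libraries that took no part in the test. ICM libraries had a peak at 82.3%, 76.7% and 80.0% of the risen regions and at 25.8%, 28.9% and 32.7% of the fallen regions. Of all shared regions, 60.3%, 58.5% and 64.1% had a peak in ICM, so that risen regions lay above and fallen regions below the level of the whole set in every ICM library. All 3 ICM libraries called 2477 (69.6%) of the risen and 736 (19.0%) of the fallen regions, and 49.3% of all shared regions. GV oocytes, which precede the comparison, showed the same order, with a peak at 36.8%, 35.8% and 36.4% of risen and 11.9%, 11.4% and 12.3% of fallen regions, beside 33.3%, 32.0% and 32.9% of all shared regions. In 8-cell TBE the shares were 47.4%, 66.3% and 35.8% of risen and 22.2%, 39.1% and 15.2% of fallen regions, beside 45.5%, 60.8% and 35.6% of all shared regions. In these 2 groups the risen regions lay little above the whole set, and the fallen regions lay well below it. No peak in any of the 24 other libraries was found at 180 (5.06%) of the risen and 1373 (35.4%) of the fallen regions, and at 15.1% of all shared regions. The higher fold enrichment of risen regions in morula goes together with these shares, and its part in them was not tested.

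Levels could be compared where a library had a peak. Relative to the median of the shared regions called in the same library, the median log2 fold enrichment of risen regions exceeded that of fallen regions by 0.45, 0.41 and 0.45 in the ICM libraries. In ESC the difference was 0.12, 0.30 and 0.38, and in GV oocytes 0.21, 0.09 and 0.07. It was 0.20, −0.01 and −0.09 in 4-cell embryos and 0.06, 0.05 and −0.04 in 8-cell TBE, where risen and fallen regions with a peak were nearly level. Regions without a peak in a library have no level there. The medians rest on 500 risen and 183 fallen regions in 4-cell replicate 3 and on 1271 and 589 in 8-cell TBE replicate 3. In ICM replicate 1 they rest on 2927 and 999. What the missing regions change in these differences was not tested. The differences were largest in ICM, and those of GV oocyte replicates 2 and 3 were little above the values of 8-cell TBE.

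Width was called at fewer shared regions, and at none in some settings. Differences in width were nevertheless the larger ones, with 8348 shared regions at least 2-fold apart against 386 for fold enrichment. Of the 8348, 1239 were called wider and 1197 narrower, so that the number of calls is no count of large differences. Peaks covered more bases in morula at 1465 regions (2.68%) and fewer at 1482 (2.71%; limma, adjusted p under 0.05). With the 4 libraries closest in background level, limma called 0 regions in either direction, while at an unadjusted p under 0.05 it gave 8732 wider and 4698 narrower regions. Without morula replicate 2 there were 756 wider regions, without morula replicate 3 there were 659 wider and 938 narrower, and without 8-cell replicate 3 there were 983 narrower. Both width and fold enrichment were called at 672 regions, which is 22.8% of those called for width, where fold enrichment was called at 13.6% of all shared regions. Among the 672 the larger groups were the 266 that rose in fold enrichment while their peaks became narrower and the 214 that fell while their peaks became wider. A further 102 rose and became wider, and 90 fell and became narrower. Fold enrichment is a mean over each peak and so is not independent of its width. How far this accounts for the sizes of these groups was not tested.

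Among called regions on placed chromosomes, the largest gain of covered bases was at chr8:8794497-8797904, where peaks covered 257, 200 and 285 bp in 8-cell libraries and 2184, 3408 and 2367 bp in morula libraries (log2 difference 3.41 ± 0.26 SE, adjusted p = 0.00893, limma). Next were chr15:24152482-24155745, with 302, 250 and 358 bp against 2056, 3241 and 3230 bp, and chr21:58631044-58633316, with 209, 200 and 229 bp against 2202, 2210 and 1429 bp. In each of these, narrow peaks of 200 to 358 bp at the 8-cell stage stood against a broad stretch in morula. The largest loss was at chr5:101386898-101389302, from 2393, 1683 and 1814 bp in 8-cell libraries to 202, 206 and 207 bp in morula libraries (log2 difference −3.24 ± 0.21 SE). At chrX:90485903-90488565 the peaks covered 1622, 2153 and 2647 bp at the 8-cell stage and 240, 200 and 229 bp in morula, and at chr2:11715125-11718489 they covered 2038, 2011 and 3365 bp against 308, 229 and 245 bp. The stages did not overlap at any of the 6 regions, which the choice of regions fixes. Calls of all 6 were lost with the 4 libraries (adjusted p = 0.0648, limma), while the log2 differences were then 3.57, 3.43 and 3.05 for the gains and −3.08, −3.48 and −3.46 for the losses. In 8-cell TBE, 3 of 3 libraries had a peak at chr5:101386898-101389302 and at chrX:90485903-90488565.

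The covered length of bins of 1 Mb was tested after centring each library on its median bin, and it was higher in morula in 567 of 2637 bins (21.5%) and lower in 734 (27.8%; limma, adjusted p under 0.05). The median bin had 27.2, 24.9 and 31.2 kb covered in 8-cell libraries and 26.5, 45.8 and 35.6 kb in morula libraries, and without centring 358 bins were higher and 14 lower. The largest rise was in the bin of chromosome 2 from 67000001 to 68000000, where peaks covered 1.23, 3.54 and 2.28 kb in 8-cell libraries and 13.8, 28.7 and 18.3 kb in morula libraries (log2 difference 2.33 ± 0.25 SE, adjusted p = 8.52e-10, limma). With a pseudocount of 10000 bases the log2 difference was 1.00, and the call was kept. This bin held 14 morula-only, 0 8-cell-only and 2 shared regions, where the median bin held 10, 4 and 19. Since lists of other stages differ in length, bins were compared with them by their share of the covered length. The bin held 0.00158%, 0.00508% and 0.00262% in 8-cell libraries, 0.0154%, 0.0266% and 0.0143% in ICM and 0.00327%, 0.0108% and 0.00869% in 4-cell embryos. All ICM libraries lay above all 8-cell libraries, and 4-cell and 8-cell libraries overlapped. The next rises were on chromosome 24 from 40000001 to 41000000, with 8.69, 6.48 and 6.71 kb against 20.9, 51.3 and 26.2 kb, and on chromosome 29 from 30000001 to 31000000, with 8.24, 5.64 and 8.91 kb against 22.6, 33.6 and 28.5 kb. Each of this pair held 17 morula-only and 0 8-cell-only regions. The bin on chromosome 24 held 0.0112%, 0.00930% and 0.00771% of the covered length in 8-cell libraries and 0.0376%, 0.0369% and 0.0447% in ICM. For that on chromosome 29 the shares were 0.0106%, 0.00809% and 0.0102% in 8-cell libraries and 0.0123%, 0.0212% and 0.0164% in ICM. ICM libraries lay above the 8-cell libraries in both bins, but on chromosome 29 below the morula libraries, which held 0.0312%, 0.0277% and 0.0288%. Above the 8-cell libraries in both bins were also all 3 libraries of 8-cell TBE. The shares in 4-cell embryos were 0.0396%, 0.00939% and 0.0366% on chromosome 24, overlapping those of the 8-cell stage, and 0.0218%, 0.0296% and 0.0232% on chromosome 29, above them.

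The largest fall was in the bin of chromosome 1 from 31000001 to 32000000, where peaks covered 35.9, 29.6 and 45.2 kb in 8-cell libraries and 15.0, 17.5 and 14.8 kb in morula libraries (log2 difference −1.49 ± 0.15 SE, adjusted p = 1.23e-10, limma). It held 12 8-cell-only and 0 morula-only regions beside 13 shared regions, and its share of the covered length was 0.0207%, 0.0145% and 0.0150% in morula and 0.00714%, 0.0127% and 0.00647% in ICM, below every morula library. On chromosome 15 from 84000001 to 85000000 the peaks covered 21.4, 26.1 and 34.4 kb in 8-cell embryos and 9.05, 17.0 and 9.84 kb in morula. This bin held 7 8-cell-only and 2 morula-only regions, and its shares in ICM, 0.00403%, 0.0145% and 0.00805%, overlapped those in morula, 0.0125%, 0.0140% and 0.00997%. On chromosome 20 from 45000001 to 46000000 they covered 21.1, 19.6 and 30.0 kb against 7.15, 17.0 and 8.79 kb, with 15 8-cell-only and 0 morula-only regions. In both bins morula replicate 2, the longest list, came closest to the 8-cell libraries without reaching them.

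Whole chromosomes shifted slightly in their share of the covered length. Of 30 chromosomes, 5 had a higher share in morula (16.7%) and 6 a lower one (20%; limma, adjusted p under 0.05). Chromosome 22 held 2.02%, 2.01% and 2.07% of the covered length in 8-cell libraries and 2.39%, 2.51% and 2.53% in morula libraries, a log2 difference of 0.28 ± 0.04 SE (adjusted p = 0.000268, limma). Its share was 2.79%, 2.60% and 2.65% in ICM, above every morula library, and 2.03%, 2.14% and 1.99% in 8-cell TBE, while ESC, at 2.22%, 2.22% and 2.31%, lay between the stages. In 4-cell embryos the share was 2.24%, 2.36% and 2.12% and in GV oocytes 2.33%, 2.10% and 2.13%, above every 8-cell library in both. Chromosome 28 held 1.53%, 1.60% and 1.51% at the 8-cell stage and 1.76%, 1.78% and 1.76% in morula, a log2 difference of 0.19. Chromosomes 8 and 11 were each higher by 0.11 on the log2 scale.

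Chromosome X held 3.08%, 2.77% and 2.86% of the covered length in 8-cell libraries and 3.20%, 3.29% and 3.17% in morula libraries, a log2 difference of 0.15 ± 0.04 SE (adjusted p = 0.0137, limma). This call was lost without 8-cell replicate 2, without 8-cell replicate 3 and without morula replicate 1, with adjusted p of 0.067, 0.0712 and 0.0662 in limma, as well as with equal numbers of top peaks (0.0629) and with peaks of a −log10 q of at least 3 (0.143). The log2 difference was 0.12, 0.14, 0.15, 0.15 and 0.16 in these settings, and the call was kept with the 4 libraries closest in background level, at 0.20 (adjusted p = 0.0230, limma). The lowest share of chromosome X among morula libraries, 3.17%, lay just above the highest of the 8-cell libraries. In ICM the share was 2.43%, 3.04% and 2.58%, below every morula library, and in ESC 3.02%, 2.87% and 2.95%.

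Chromosome 6 had the largest fall, from 4.44%, 4.50% and 4.50% of the covered length in 8-cell libraries to 4.01%, 3.98% and 3.80% in morula libraries (log2 difference −0.19 ± 0.02 SE, adjusted p = 0.000268, limma). The stages were well apart. The share was 3.58%, 4.01% and 3.82% in ICM and 4.10%, 4.56% and 4.29% in ESC, where it lay above every morula library. It was below every 8-cell library in 8-cell TBE, at 3.67%, 3.94% and 3.94%, in 4-cell embryos, at 3.63%, 3.84% and 3.34%, and in GV oocytes, at 2.99%, 2.71% and 3.04%. Chromosomes 17 and 9 were lower by a log2 difference of −0.13 each, chromosomes 1 and 2 by −0.08 each and chromosome 5 by −0.07. The number of lower chromosomes was 3 without 8-cell replicate 3 and 3 without morula replicate 1, and that of higher chromosomes was 9 without morula replicate 3. Calls of chromosome 1 were lost without 8-cell replicate 2, 8-cell replicate 3, morula replicate 1 or morula replicate 3 (adjusted p from 0.0527 to 0.144, limma), with log2 differences from −0.06 to −0.09. Chromosome 5 lost its call without 8-cell replicate 2, 8-cell replicate 3, morula replicate 1 or morula replicate 2, and also with equal numbers of top peaks (adjusted p = 0.0711, limma), with log2 differences from −0.05 to −0.07. Chromosome 17 lost it without 8-cell replicate 1, 8-cell replicate 3 or morula replicate 1, with log2 differences from −0.11 to −0.13. With peaks of a −log10 q of at least 3, 11 chromosomes were higher and 8 lower. With the 4 libraries closest in background level, 2 chromosomes were higher and 4 lower. The calls of chromosomes 8, 9, 11, 17 and 28 were lost there, with log2 differences of 0.09, −0.13, 0.08, −0.09 and 0.19, and those of chromosomes 2 and 9 with peaks of a −log10 q of at least 3, with −0.06 and −0.10. Of the 11 called chromosomes, 6 and 22 kept their calls in every setting run. The ratio of morula-only to 8-cell-only regions was lowest on chromosome 6, at 1.50, and highest on chromosome 22, at 5.87, with a median of 3.02 over the chromosomes. Shares of 1 total are not independent of each other.

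**Figure D5:**
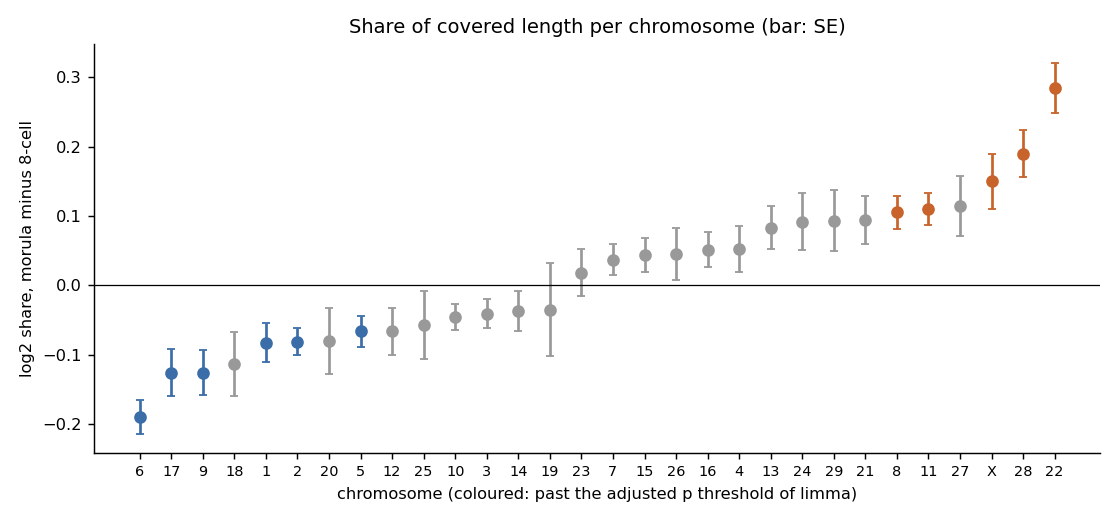
Difference in the share of covered length between morula and 8-cell libraries for each of 30 chromosomes, on the log2 scale with its SE, ordered from the largest fall to the largest rise. Orange and blue points are past the adjusted p of 0.05 in limma, with chromosome 6 lowest at −0.19 and chromosome 22 highest at 0.28.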

How the data were processed

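Lists of broad ATAC-seq peaks of 3 control 8-cell and 3 control morula libraries were compared, and 24 lists of other groups served to describe the same regions, bins and chromosomes elsewhere. The submitters' processing notes name Trim Galore, BWA 0.7.17, SAMtools 1.7, MACS2 2.1.1 and the build ARS-UCD1.2, and every list belongs to a single replicate. Fold enrichment, a ratio of pileup to local background, is given by the authors as the MACS2 mean over each peak. The authors deposited p and q of each peak as −log10 values. The score column was not used.

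R 4.3.3 with limma 3.58.1 and Python 3.11.15 were used here, the latter with scipy 1.17.1, numpy 2.4.6, matplotlib 3.10.9 and pandas 2.3.3. Peaks of the 6 lists that overlapped by at least 1 bp were merged into regions, and a library had a region where at least 1 bp of a peak lay in it. The fold enrichment of a region was the mean of its peaks weighted by length. Read numbers of the libraries were not used here, and the background level stands in for depth. Single values per library were compared with exact permutation tests of the difference in means. Regions called in all 6 libraries, bins and chromosomes were tested with limma (eBayes with trend, Benjamini-Hochberg adjusted p under 0.05). Log2 fold enrichment and bins were centred on the median of each library, with a pseudocount of 1000 bases for bins and at least 1000 covered bases in at least 3 libraries. Bases covered in a region were tested on the log2 scale without centring. The interval code, the background level and the fits were tested on simulated data, where the fit of covered bases recovered few of the changed regions.

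Named on chromosomes 1 to 29 and X were the 3 regions of each single-stage class with the highest mean fold enrichment, the 5 largest rises and falls of fold enrichment and the 3 largest of covered bases with adjusted p under 0.05 and stages that did not overlap, the 3 bins with the largest rise and fall, and all called chromosomes. The members and lists were chosen with earlier results of these data known. Alternatives were peaks with a −log10 q of at least 3, equal numbers of top peaks, autosomes only, an overlap of 50%, other centring, pseudocount, filter, index and variance model, leaving out each library and a replicate block. Removing the pseudocount from fold enrichment, the 4 libraries of closest background level, and presence in ICM under each alternative were added after the data had been seen. Promoters of gene lists and sequence motifs were left out, since no annotation or sequence of ARS-UCD1.2 was used here.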

Additional observations from a re-analysis of the deposited data

How the results depend on the processing

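Over 20 results, 177 of 246 values under another setting kept their direction and their call, or stayed within 1.5 times or 1 SD; of 400 values for named regions, bins and chromosomes, 360 kept their call, 40 lost it and 0 changed direction. Where values moved, the cause was not tested, except that rules on fewer libraries or stricter peaks change counts by construction. The ratio of median peak width (morula to 8-cell, 0.997) turned to 1.07 with −log10 q of at least 3, 1.05 with equal top peaks, 1.10 with the 4 libraries of closest background level, 1.06 without 8-cell replicate 1 and 1.03 without morula replicate 1. The ratio of median gaps (0.852) turned to 1.03 with equal top peaks. With the 4 libraries, ratios were 1.33 for peaks, 1.40 for covered length, 0.760 for gaps and 1.29 for −log10 q, with no overlap of the stages in these or in width. Leaving out a library gave 1.15 to 1.38 for peaks, 1.09 to 1.41 for covered length, 0.967 to 1.06 for width, 0.760 to 0.914 for gaps and 1.09 to 1.23 for −log10 q. The stages then did not overlap in peaks without 8-cell replicate 3 or morula replicate 1, in covered length and gaps without morula replicate 1, and in −log10 q without 8-cell replicate 1 or morula replicate 1. Fold enrichment was called higher at 1787 and lower at 2096 regions with −log10 q of at least 3, 1064 and 1300 with 50% covered, 9235 and 1399 without centring, and at 1769 to 4149 and 2022 to 4583 without a library. Wider and narrower regions numbered 869 (wider, −log10 q of at least 3), 250 and 284 (50% covered), 0 and 0 (4 libraries), and 659 to 1993 and 938 to 1547 without a library. Bins were 358 higher and 14 lower without centring. With a pseudocount of 10000 bases, log2 differences were 1.00, 0.98 and 0.85 for the named rises and −1.12, −1.03 and −0.96 for the named falls, with calls kept. Higher chromosomes were 11 with −log10 q of at least 3, 2 with the 4 libraries and 4 to 9 without a library, and lower ones 3 to 9. Morula-only regions were 52686 with the 4 libraries, 55595 with 2 of 3 libraries and 31802 to 47553 without a library, and 8-cell-only regions 20528, 25767, 12859 to 18386, and 7050 with −log10 q of at least 3. Mean presence of morula-only regions in ICM was 57.9% with −log10 q of at least 3, 53.2% with equal top peaks, 37.5% with the 4 libraries, 49.9% with 50% covered, 34.7% with 2 of 3 libraries and 37.2% to 45.7% without a library; that of 8-cell-only regions was 3.86%, 4.29% (equal top peaks), 11.6% (50% covered) and 2.15% to 3.53%. With a replicate block, limma called 0 wider and 0 narrower regions (4664 and 4058 at an unadjusted p under 0.05) and 3 lower chromosomes, with no call at the 6 named regions of changed width (adjusted p = 0.127) or at chromosomes 1, 5, 17 and X (adjusted p of 0.0632, 0.0705, 0.0632 and 0.0632), no other count moved by over 1.5 times, and all 3 pairs had more peaks in morula (ratio 1.27; exact sign-flip test, p = 0.25, its smallest). Same-numbered libraries had correlations of deviations of −0.10, −0.10 and 0.04, and those of different number had −0.06 to 0.14. The labels do not say whether a number marks the same oocyte collection in both stages. These few correlations cannot settle it, and the numbers were not taken as pairs. Named regions without a peak in some library under stricter peaks, equal top peaks or 50% covered, and those on X with autosomes only, gave no value there. Background levels were highest in 8-cell and lowest in morula replicate 1, and what depth limits in these lists was not tested.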
